A study of Mus musculus with 12 samples.

Results

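The genes described here are 9 genes through which astrocytes clear glutamate, potassium and water from the space around neurons, with 2 general astrocyte proteins among them. They are Slc1a2, Slc1a3, Glul, Kcnj10, Aqp4, Gja1, Gjb6, Aldh1l1 and S100b. They were chosen by name, and a probe was kept when some group had it well above background on each of its 3 arrays. The 9 genes stand among 18169 genes measured in hippocampus and have 19 probes, of which 18 were kept, among 27670 kept probes in all. The probe left out, Slc1a3 A_51_P333324, was well above background on 1 array, with an intensity between 3.52 and 12.5 arbitrary units.

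Astrocytes take up most of the glutamate released at synapses through the transporters encoded by Slc1a2 (GLT-1) and Slc1a3 (GLAST), and glutamine synthetase, encoded by Glul, turns it into glutamine that is handed back to neurons. Potassium released by firing neurons enters astrocytes through the inward rectifier Kir4.1, encoded by Kcnj10, water follows through the endfoot channel aquaporin-4, encoded by Aqp4, and the load spreads from cell to cell through gap junctions of connexin 43 (Gja1) and connexin 30 (Gjb6). Aldh1l1, a folate enzyme, and S100b, a calcium-binding protein, are widely used to mark astrocytes. In epileptic hippocampus this clearance is of interest because raised extracellular potassium and glutamate make neurons more excitable.

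Every mouse of the series, controls included, was a male C57BL/6N animal of 12 weeks that had received 50 nl of 20 mM kainate, a glutamate receptor agonist, on the left side of the dorsal hippocampus and had gone on to have recurrent seizures. After 3 weeks the mice were given saline or lipopolysaccharide (LPS, a bacterial cell wall component that sets off systemic inflammation) at 100 µg/kg into the peritoneum, and the whole hippocampus was taken 4 or 24 h later, from 3 mice per group. The 4 groups are called saline 4 h, LPS 4 h, saline 24 h and LPS 24 h below. No group without kainate is part of the comparisons, and the labels give neither the side analysed nor the hour of dissection.

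The probes are strands of 60 bases, each reading 1 stretch of a transcript, and where a gene has several they need not report the same transcript form. The sequences of 6 probes that lie in coding sequence are shown. The results of Slc1a2 differed between its probes, the probes of Aldh1l1 and S100b are the only ones of their gene, and Glul and Gjb6 have others not shown. Positions are on mm9, the build named in the array files, and the sequences are those of the files, 5′ to 3′.

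Slc1a2 A_52_P168496: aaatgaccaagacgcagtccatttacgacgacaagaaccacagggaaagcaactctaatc

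Slc1a2 A_51_P477875: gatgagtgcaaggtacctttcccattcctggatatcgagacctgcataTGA

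Glul A_52_P143866: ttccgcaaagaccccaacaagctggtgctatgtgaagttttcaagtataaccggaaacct

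Gjb6 A_51_P218937: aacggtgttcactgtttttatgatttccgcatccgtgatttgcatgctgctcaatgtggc

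Aldh1l1 A_51_P504546: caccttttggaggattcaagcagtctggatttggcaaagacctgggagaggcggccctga

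S100b A_51_P208083: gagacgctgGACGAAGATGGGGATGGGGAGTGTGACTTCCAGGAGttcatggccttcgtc

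The Slc1a2 probes lie at chr2:102617706-102617765 and chr2:102617801-102617860 on the plus strand, 95 bases apart by their starts. In the second, the capitals mark a stop codon, and the bases after it were left out. The files describe this probe as designed to transcript variant 3 of Slc1a2, a form with a coding end of its own, and the other Slc1a2 probes as designed to variant 1. Further along the gene lie Slc1a2 A_52_P178651 and Slc1a2 A_51_P179878, which start 4362 and 13137 bases after the first. The Glul probe lies at chr1:155751765-155751824 on the plus strand, with the other Glul probes 4020 and 4985 bases further on. The Gjb6 probe lies at chr14:57743017-57743076 on the minus strand. The Aldh1l1 probe lies at chr6:90548335-90548895 on the plus strand, so its 60 bases are spread over 561 bases of genome and it crosses a splice junction. The S100b probe lies at chr10:75722709-75722768 on the plus strand, and its capitals mark 36 bases that encode a calcium-binding loop of the protein. Of the genes whose probe sequences are not printed, Kcnj10 is read on chromosome 1, Gja1 on chromosome 10, Slc1a3 on chromosome 15 and Aqp4 on chromosome 18.

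Signal is given as the log2 of the intensity of a probe minus the log2 of the 75th percentile of its array, called log2 signal below. At 4 h that percentile was 365 ± 12.3 with saline and 663 ± 33.6 with LPS, and at 24 h it was 769 ± 60.7 with saline and 820 ± 116 with LPS (intensity, SD, n = 3), so the saline 4 h arrays stood apart as the dimmest. Between 53.8% and 55% of probes were well above background in saline 4 h, against 58.1% to 61.4%, 65.1% to 66.4% and 69% to 70.9% in the other groups in the same order, and no spot was saturated. The 12 arrays came from 6 slides with 1 saline and 1 LPS array each. All 4 h arrays were scanned in 1 run and all 24 h arrays in another, so the time of dissection and the scan run cannot be told apart. Over all probes, replicate arrays had a median SD from 0.05 to 0.07 log2 units. That these arrays come from separate mice rests on the labels, and p-values measure the spread between them.

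At 4 h after LPS the clearance genes were split. Glul, Slc1a3 and Aldh1l1 rose, while S100b, Aqp4, Kcnj10 and Slc1a2 fell, and Gjb6 and Gja1 lay close to their controls. Of the 18 probes 6 were higher and 10 lower at an adjusted p under 0.05 in limma, which is 88.9% of them, beside 71% of all probes. This split moved with the scaling of the arrays. It was 9 higher and 6 lower with quantile normalization, 7 and 7 with the 75th percentile taken over probes above background on all arrays, and 5 and 11 with median scaling. The median of the 18 log2 differences was -0.18, beside -0.08 over all probes. At this time 31.6% of all probes were called higher and 39.4% lower, so a call alone says little about a gene here. The arrays of LPS 4 h and saline 4 h did not overlap for any of the 18 probes, 7 of which were higher and 11 lower, beside 74.6% of all probes without overlap.

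Because the tissue was whole hippocampus, a change in cell numbers and a change in RNA per cell cannot be told apart in any of these values. Which cells the RNA came from was not measured.

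**Figure D1:**
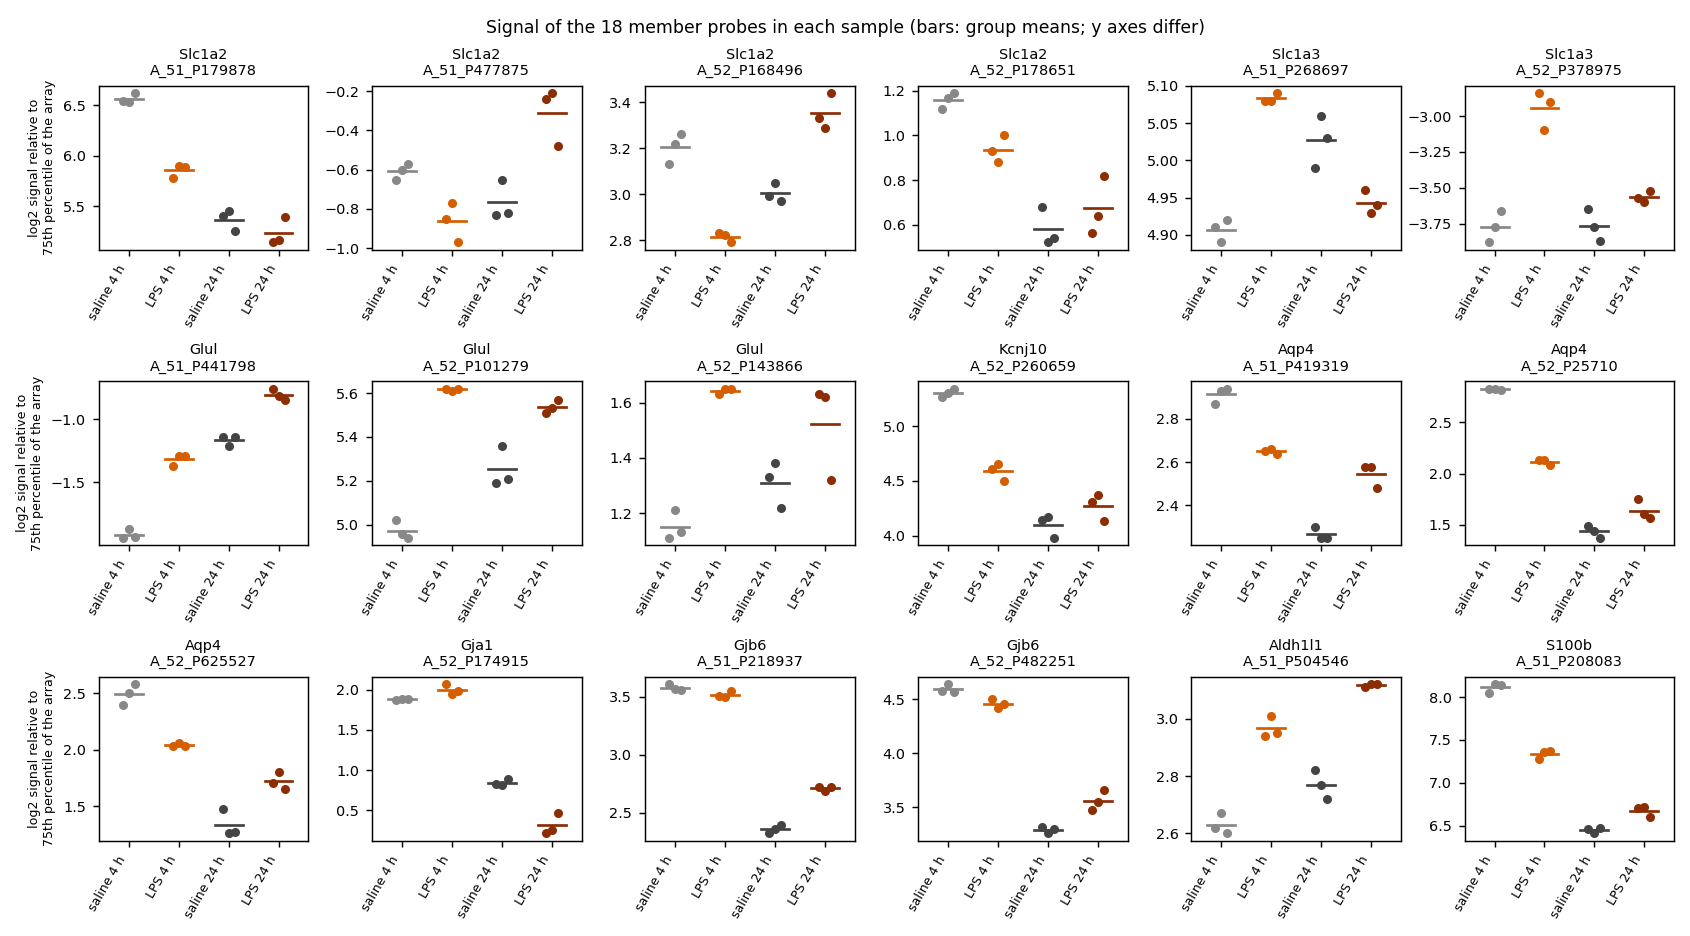
Log2 signal of each of the 18 probes (y axis, relative to the 75th percentile of the array) in the 3 arrays of saline 4 h, LPS 4 h, saline 24 h and LPS 24 h (x axis), with a bar at each group mean and a y axis of its own per probe. In S100b the arrays fall from 8.05 or more in saline 4 h to between 6.41 and 6.72 at 24 h, while the Glul panels rise from saline 4 h to LPS 4 h.

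At 24 h after LPS most of the genes stood above their controls, by small amounts. Slc1a2 (2 of its 4 probes), Glul (2 of 3), all 3 probes of Aqp4, both of Gjb6, Aldh1l1 and S100b were higher, 11 probes in all. Lower were Gja1 and, by 0.08 log2 units, Slc1a3 A_51_P268697. These 13 of 18 probes are 72.2%, beside 41.7% of all probes called at 24 h, 20.8% higher and 20.9% lower. The median log2 difference of the 18 was 0.25, beside 0.003 over all probes. Arrays did not overlap for 14 of the 18 probes, 12 higher and 2 lower, beside 53.7% of all probes.

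The difference between the responses, the log2 difference at 24 h minus that at 4 h, was tested in the same fit. It was called for 16 of the 18 probes, 11 of them positive and 5 negative, beside 65.9% of all probes, 37.6% positive and 28.3% negative. The positive ones were the probes of Slc1a2, Kcnj10, Aqp4, Gjb6 and S100b, and the negative ones those of Slc1a3 and Gja1 and 2 of Glul. Its size ran from -0.66 in Gja1 to 1.01 in S100b.

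**Figure D2:**
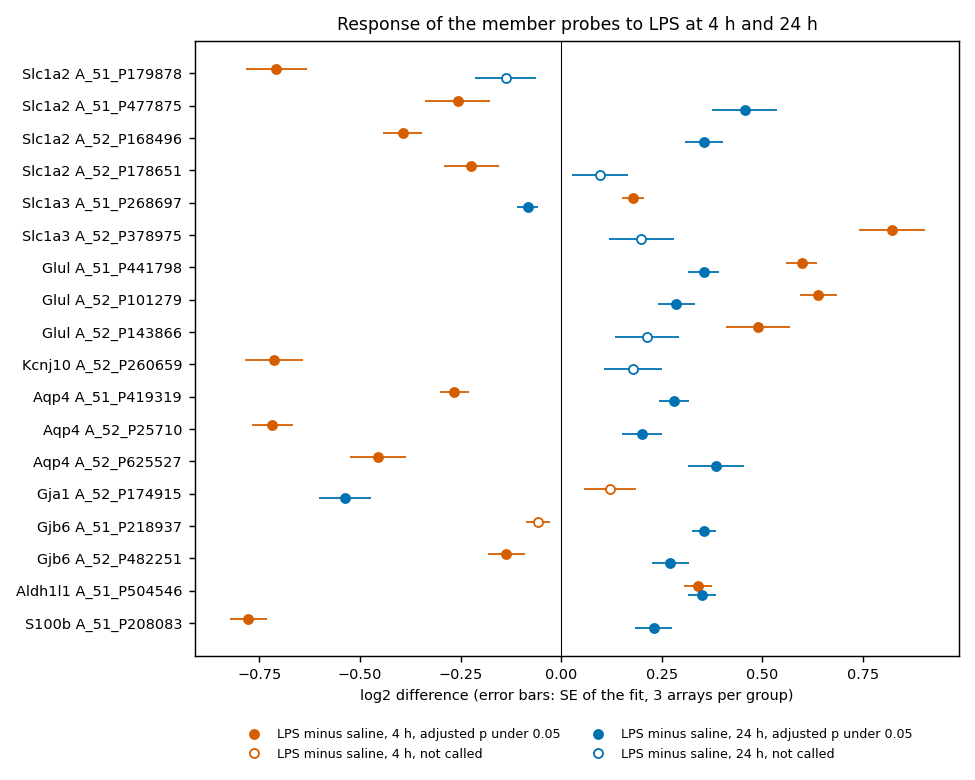
Log2 difference between LPS and saline (x axis) for each of the 18 probes at 4 h (orange) and 24 h (blue), with the SE of the fit over 3 arrays per group as bars and open circles where the adjusted p was not under 0.05. At 4 h the values run from -0.78 in S100b to 0.82 in Slc1a3 A_52_P378975, and at 24 h from -0.54 in Gja1 to 0.46 in Slc1a2 A_51_P477875.

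The controls themselves differed between the times, which bears on the values at 4 h and at 24 h. Saline 24 h was lower than saline 4 h in 11 of the 18 probes and higher in 4, which is 83.3%, beside 79.5% of all probes called, 41.5% lower and 38% higher. The median log2 difference of the 18 was -0.61, beside -0.02 over all probes. S100b was 3.17-fold lower in saline 24 h than in saline 4 h (log2 difference -1.66 ± 0.05, SE, adjusted p = 4.3e-10), Aqp4 A_52_P25710 2.63-fold, Gjb6 A_52_P482251 2.47-fold, Kcnj10 2.31-fold and Slc1a2 A_51_P179878 2.29-fold. Glul A_51_P441798 was 1.68-fold higher. Arrays of the saline groups did not overlap for 17 of the 18 probes, beside 81.5% of all probes.

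For 8 of the 10 probes that were lower at 4 h, the mean of LPS 4 h lay between the means of the saline groups. Set against saline 24 h in place of saline 4 h, 14 of the 18 probes were higher in LPS 4 h and 2 lower. Over all 27670 probes 9812 were higher and 9783 lower in this comparison. The falls of S100b, Kcnj10, Aqp4, Gjb6 and 2 probes of Slc1a2 at 4 h therefore turned into rises, as in S100b at 0.89 ± 0.05 (adjusted p = 8.72e-08). The rises of Aldh1l1, of 2 of the 3 Glul probes and of Slc1a3 A_52_P378975 kept their direction, the last at 0.81 (adjusted p = 9.5e-06). Slc1a2 A_52_P168496 was still called lower, at -0.19 (adjusted p = 0.00485). Slc1a3 A_51_P268697 at 0.06 (adjusted p = 0.0839) and Slc1a2 A_51_P477875 at -0.09 (adjusted p = 0.321) were no longer called. Set against saline 4 h in place of saline 24 h, 7 of the 18 probes were higher in LPS 24 h and 10 lower. Over all probes 11044 were higher and 11071 lower. The rises at 24 h of S100b (now -1.43 ± 0.05), Aqp4 and Gjb6 turned into falls. The calls of Aldh1l1, Gja1, Glul A_51_P441798 and A_52_P101279, and Slc1a2 A_51_P477875 and A_52_P168496 kept their direction. Slc1a3 A_51_P268697 at 0.04 (adjusted p = 0.205) was no longer called. The controls of the same time are the main comparison throughout, and no array of the other time shares their scan run.

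Glutamate uptake comes first. Slc1a2 encodes the main glutamate transporter of the forebrain. The Slc1a2 A_52_P168496 signal was 3.13, 3.22 and 3.26 with saline and 2.83, 2.82 and 2.79 with LPS at 4 h, and at 2.99, 3.05 and 2.97 with saline and 3.33, 3.29 and 3.44 with LPS at 24 h. All LPS arrays lay below their controls at 4 h and above them at 24 h. The log2 difference was -0.39 ± 0.05 (SE) at 4 h (adjusted p = 3.45e-05) and 0.35 ± 0.05 at 24 h (adjusted p = 0.00027), and these differed by 0.75 ± 0.07 (adjusted p = 5.57e-06).

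Transcript variant 3, read by the probe with the stop codon, went the same way as the first probe. Slc1a2 A_51_P477875 stood at -0.65, -0.60 and -0.57 with saline and -0.85, -0.77 and -0.97 with LPS at 4 h, and at -0.83, -0.65 and -0.82 with saline and -0.24, -0.21 and -0.48 with LPS at 24 h. At neither time did the LPS arrays overlap their controls. It fell by 0.26 on the log2 scale at 4 h (SE 0.08, adjusted p = 0.0164) and rose by 0.46 ± 0.08 at 24 h (adjusted p = 0.00148). The fall at 4 h lost its call without LPS 4 h replicate 3 (adjusted p = 0.0642).

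The far end of the gene gave other values. Slc1a2 A_51_P179878 was at 6.54, 6.53 and 6.62 with saline and 5.78, 5.90 and 5.89 with LPS at 4 h, and at 5.40, 5.45 and 5.25 with saline and 5.14, 5.16 and 5.39 with LPS at 24 h. Its arrays overlapped between LPS and saline at 24 h but not at 4 h. It fell by 0.71 ± 0.08 at 4 h (adjusted p = 1.49e-05), and at 24 h the difference of -0.14 ± 0.08 did not pass the test (adjusted p = 0.181) until LPS 24 h replicate 3 was left out (-0.22, adjusted p = 0.0252). Slc1a2 A_52_P178651 differed by -0.22 ± 0.07 at 4 h (adjusted p = 0.0152) and 0.10 ± 0.07 at 24 h (adjusted p = 0.308). Its call at 4 h was lost without LPS 4 h replicate 2 (adjusted p = 0.0541) and with the slide as a block (adjusted p = 0.056). The 4 probes thus had 1 direction at 4 h and spread over 0.49 log2 units there and 0.59 at 24 h. Their mean was -0.40 ± 0.04 at 4 h and 0.19 ± 0.04 at 24 h.

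Slc1a3 encodes the other astrocyte glutamate transporter, and it rose at 4 h where Slc1a2 fell. The bright probe, Slc1a3 A_51_P268697, was at 4.91, 4.89 and 4.92 with saline and 5.08, 5.08 and 5.09 with LPS at 4 h, and at 4.99, 5.06 and 5.03 with saline and 4.96, 4.93 and 4.94 with LPS at 24 h. The arrays of each time did not overlap, and all 12 lay between 4.89 and 5.09. The difference was 0.18 ± 0.03 at 4 h (adjusted p = 0.000163) and -0.08 ± 0.03 at 24 h (adjusted p = 0.0297). With median scaling the difference at 4 h was 0.01 and was not called (adjusted p = 0.828). The call at 24 h was lost without saline 24 h replicate 2 (adjusted p = 0.0924), saline 24 h replicate 3 (0.0666) or LPS 24 h replicate 2 (0.0832).

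A dim probe 46337 bases away showed a larger rise. Slc1a3 A_52_P378975 was at -3.88, -3.77 and -3.66 with saline and -2.84, -3.10 and -2.90 with LPS at 4 h, and at -3.65, -3.77 and -3.87 with saline and -3.57, -3.60 and -3.52 with LPS at 24 h. The LPS 4 h arrays stood above all others. The rise at 4 h was 0.82 ± 0.08 (adjusted p = 7.85e-06), and 0.20 ± 0.08 at 24 h did not pass the test (adjusted p = 0.0774) unless saline 24 h replicate 1 was left out (0.25, adjusted p = 0.0474). With normexp background correction the difference at 4 h was 0.21 and was not called.

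Glul, the enzyme that turns glutamate into glutamine, rose at 4 h on each of its 3 probes. Glul A_52_P101279 was at 5.02, 4.96 and 4.94 with saline and 5.62, 5.61 and 5.62 with LPS at 4 h, and at 5.19, 5.36 and 5.21 with saline and 5.51, 5.53 and 5.57 with LPS at 24 h. The LPS arrays of each time lay above all saline arrays. It was 1.56-fold higher at 4 h (log2 difference 0.64 ± 0.05, adjusted p = 7.51e-07) and 1.22-fold higher at 24 h (0.29 ± 0.05, adjusted p = 0.000823), and the response was smaller at 24 h by 0.35 ± 0.06 (adjusted p = 0.000844).

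The other probes of Glul moved the same way. Glul A_51_P441798 was at -1.94, -1.87 and -1.93 with saline and -1.37, -1.29 and -1.29 with LPS at 4 h, and at -1.14, -1.21 and -1.14 with saline and -0.76, -0.82 and -0.85 with LPS at 24 h. Saline 24 h lay above LPS 4 h on this probe, so the rise of 0.60 ± 0.04 at 4 h (adjusted p = 3.7e-07) became -0.15 ± 0.04 (adjusted p = 0.00518) against saline 24 h. The coding probe shown above, Glul A_52_P143866, ran from 1.11 to 1.21 with saline and 1.63 to 1.65 with LPS at 4 h, and from 1.22 to 1.38 with saline and 1.32 to 1.63 with LPS at 24 h. It rose by 0.49 ± 0.08 at 4 h (adjusted p = 0.00032). At 24 h, where LPS 24 h replicate 3 lay among the controls, the difference of 0.21 ± 0.08 was not called (adjusted p = 0.0584), and without that replicate it was 0.32 (adjusted p = 0.00127). The mean of the 3 probes was 0.58 ± 0.04 higher at 4 h and 0.28 ± 0.04 at 24 h.

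Kcnj10 and Aqp4 both fell at 4 h. Kcnj10, the astrocyte potassium channel, was at 5.26, 5.30 and 5.34 with saline and 4.61, 4.65 and 4.50 with LPS at 4 h, and at 4.14, 4.17 and 3.98 with saline and 4.31, 4.37 and 4.13 with LPS at 24 h. The arrays of LPS 4 h lay below saline 4 h and above every saline 24 h array, and at 24 h the groups overlapped. It was 1.64-fold lower at 4 h (log2 difference -0.71 ± 0.07, adjusted p = 8.84e-06), and the value of 0.18 ± 0.07 at 24 h did not pass the test (adjusted p = 0.0724). That difference was positive on all 3 slides at 24 h, between 0.16 and 0.20, and was called with the slide as a block (adjusted p = 0.00826) and without LPS 24 h replicate 3 (adjusted p = 0.0159).

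Aqp4, the water channel of astrocyte endfeet, gave 1 direction on its 3 probes at each time. Aqp4 A_52_P25710 was at 2.83, 2.83 and 2.82 with saline and 2.13, 2.13 and 2.08 with LPS at 4 h, and at 1.49, 1.44 and 1.37 with saline and 1.75, 1.60 and 1.56 with LPS at 24 h. No groups overlapped, and LPS 4 h lay between the controls of both times. It fell by 0.72 ± 0.05 at 4 h (adjusted p = 6.29e-07) and rose by 0.20 ± 0.05 at 24 h (adjusted p = 0.00992). Fitted on the 24 h arrays alone, the latter was not called (adjusted p = 0.0563).

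Aqp4 A_52_P625527 stood at 2.40, 2.50 and 2.58 with saline and 2.03, 2.06 and 2.03 with LPS at 4 h, and at 1.48, 1.26 and 1.27 with saline and 1.71, 1.80 and 1.65 with LPS at 24 h. Its difference was -0.46 ± 0.07 at 4 h (adjusted p = 0.000178) and 0.38 ± 0.07 at 24 h (adjusted p = 0.00155). Aqp4 A_51_P419319 ranged from 2.87 to 2.94 with saline and 2.64 to 2.66 with LPS at 4 h, and from 2.25 to 2.30 with saline and 2.48 to 2.58 with LPS at 24 h. Its fall of 0.27 ± 0.04 at 4 h (adjusted p = 8.47e-05) was the smallest of the 3 probes, and the rise at 24 h was 0.28 ± 0.04 (adjusted p = 0.000213). These probes start within 636 bases of each other, and their differences at 4 h spread over 0.45 log2 units.

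Gap junctions came next, and here the connexins parted at 24 h. Gja1, which encodes connexin 43, is read by 1 probe printed 10 times on each array. Its log2 signal was 1.87, 1.88 and 1.89 with saline and 2.07, 1.95 and 1.98 with LPS at 4 h, and at 0.83, 0.81 and 0.89 with saline and 0.21, 0.25 and 0.47 with LPS at 24 h. The LPS arrays lay just above their controls at 4 h and well below them at 24 h. The difference of 0.12 ± 0.06 at 4 h did not pass the test (adjusted p = 0.121), and the fall of 0.54 ± 0.06 at 24 h did (adjusted p = 0.000133). At 4 h it was called when the 4 h arrays were fitted alone (adjusted p = 0.0398) and was -0.05 with median scaling. With quantile normalization and with the percentile over probes above background it was called higher, at 0.23 in both (adjusted p = 0.0113 and 0.0128).

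Gjb6, which encodes connexin 30, rose at 24 h. Gjb6 A_51_P218937 was at 3.61, 3.57 and 3.56 with saline and 3.51, 3.50 and 3.55 with LPS at 4 h, and at 2.32, 2.36 and 2.39 with saline and 2.72, 2.69 and 2.72 with LPS at 24 h. Both 24 h groups lay far below both 4 h groups. The difference was -0.06 ± 0.03 at 4 h (adjusted p = 0.116) and 0.35 ± 0.03 at 24 h (adjusted p = 1.37e-05). Gjb6 A_52_P482251 gave -0.14 ± 0.05 at 4 h (adjusted p = 0.0221) and 0.27 ± 0.05 at 24 h (adjusted p = 0.00113). The call of this probe at 4 h was lost without saline 4 h replicate 2 (adjusted p = 0.0792), LPS 4 h replicate 2 (0.0751) or LPS 4 h replicate 3 (0.0522). With quantile normalization both probes were called higher at 4 h, Gjb6 A_51_P218937 at 0.17 (adjusted p = 0.000625) and Gjb6 A_52_P482251 at 0.19 (adjusted p = 0.0103). Between the saline groups the probes differed by -1.23 and -1.31.

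Aldh1l1, the folate enzyme, rose at both times. It was at 2.62, 2.67 and 2.60 with saline and 2.94, 3.01 and 2.95 with LPS at 4 h, and at 2.82, 2.77 and 2.72 with saline and 3.11, 3.12 and 3.12 with LPS at 24 h. Every LPS array lay above every saline array, across both times. The difference was 0.34 ± 0.03 at 4 h (adjusted p = 9.66e-06) and 0.35 ± 0.03 at 24 h (adjusted p = 3.64e-05), and these differed by 0.01 ± 0.05 (adjusted p = 0.882).

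S100b, the calcium-binding protein, fell at 4 h and rose at 24 h. It was at 8.05, 8.15 and 8.14 with saline and 7.28, 7.36 and 7.37 with LPS at 4 h, and at 6.46, 6.41 and 6.47 with saline and 6.71, 6.72 and 6.60 with LPS at 24 h. The groups did not overlap and stood in the order saline 4 h, LPS 4 h, LPS 24 h and saline 24 h. It was 1.71-fold lower at 4 h (log2 difference -0.78 ± 0.05, adjusted p = 2.04e-07) and 1.17-fold higher at 24 h (0.23 ± 0.05, adjusted p = 0.00324). With quantile normalization the difference at 4 h was -0.11, and with the deposited matrix -0.09, and neither was called.

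Within slides, where 1 saline and 1 LPS array shared the glass, the sign was the same on all 3 slides for 18 of 18 probes at 4 h and for 16 of 18 at 24 h. The exceptions at 24 h were Slc1a2 A_51_P179878 and Slc1a2 A_52_P178651, which were not called. Called probes had the same sign on every slide of their time. None of the 18 probes at 4 h, and no called probe at 24 h, had overlapping arrays, so any pairing of arrays gives them 1 sign. Their agreement within slides therefore adds nothing to the calls.

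Which of these values moved with the scaling of the arrays was checked in 5 other ways. At 4 h the median of all probes went from -0.25 with median scaling to 0.03 when the percentile was taken over probes above background on all arrays, against -0.08 as reported. The share of higher ones among the probes called at 4 h was 44.5%, and 32.8% and 53.2% with these scalings; at 24 h it was 49.8%, and 29.9% with median scaling. Glul (3 probes), Aldh1l1, Kcnj10, Aqp4 A_52_P25710 and A_52_P625527, and Slc1a2 A_51_P179878 and A_52_P168496 kept direction and call at 4 h in all 5. The remaining calls at 4 h were lost in at least 1 of them. With quantile normalization Gjb6 A_52_P482251 was called higher instead of lower (0.19, adjusted p = 0.0103). At 24 h Slc1a2 A_51_P477875 and A_52_P168496, Glul A_51_P441798 and A_52_P101279, Aqp4 A_51_P419319 and A_52_P625527, Gja1, Gjb6 A_51_P218937 and Aldh1l1 kept direction and call in all 5.

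**Figure D3:**
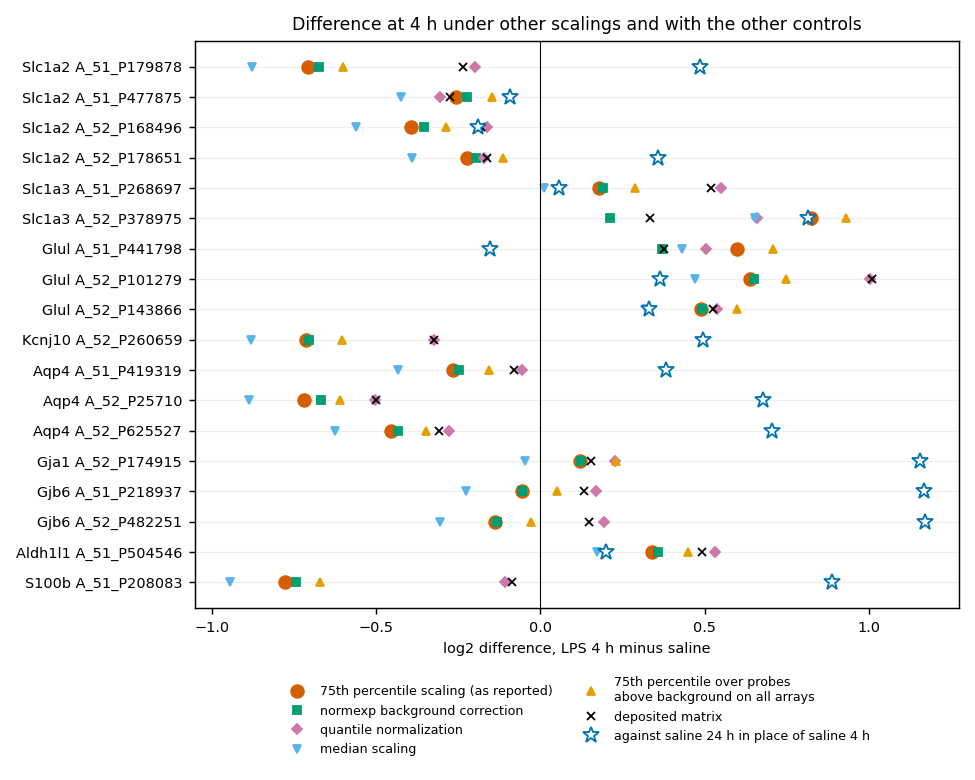
Log2 difference between LPS 4 h and saline (x axis) for each of the 18 probes as reported (filled circle), under 5 other scalings of the arrays, and against saline 24 h in place of saline 4 h (open star). The 3 Glul probes and Aldh1l1 stay to the right of 0 under the scalings, while the stars of S100b (0.89), Kcnj10 (0.49) and the Aqp4 probes lie on the other side of 0 from their circles.

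The difference at 4 h also moved with brightness over all probes. When the 27670 probes were sorted into 10 equal groups by mean signal, a split made after the values had been seen, the median log2 difference at 4 h was 0.11 in the second group from the dim end, -0.24 in the ninth and -0.40 in the brightest. In the brightest group 72.2% of probes were called lower and 15.6% higher, in the ninth 60.5% and 24.7%, and in the eighth 50.9% and 32.2%. Of the 18 probes, 6 lay in the brightest group, 6 in the ninth and 3 in the eighth. The 88.9% of the 18 called at 4 h is therefore better set beside these shares than beside 71%. Relative to the median of their own group, S100b stood at -0.38, Kcnj10 at -0.31, Aqp4 A_52_P25710 at -0.48 and Slc1a2 A_51_P179878 at -0.31, while Aqp4 A_51_P419319 stood at -0.02. Glul A_52_P101279 stood at 1.04, Slc1a3 A_51_P268697 at 0.58 and Aldh1l1 at 0.58. Gjb6, below 0 as reported, stood at 0.18 and 0.26. The part of brightness in the falls was not tested.

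**Figure D4:**
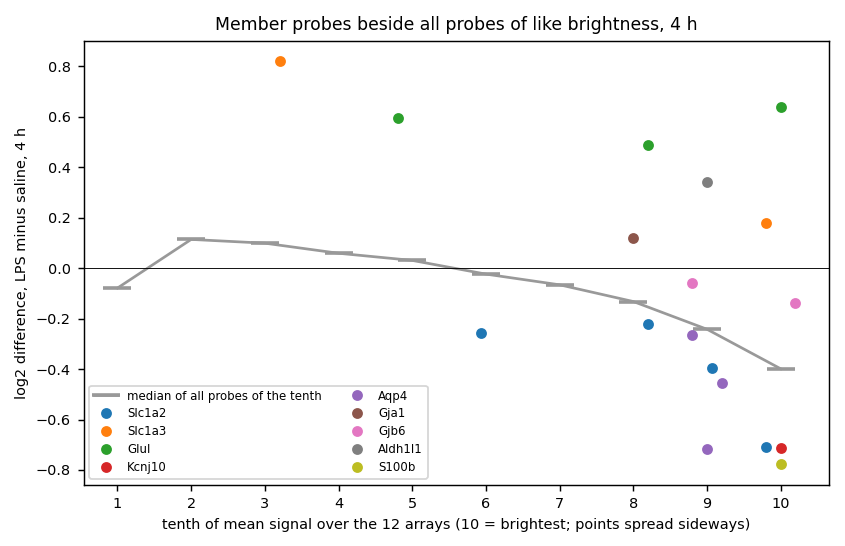
Log2 difference between LPS and saline at 4 h (y axis) for the 18 probes (coloured by gene) and the median of all probes (grey line) in 10 equal groups by mean signal over the 12 arrays (x axis, 10 the brightest, points spread sideways). The grey line falls to -0.40 in the brightest group, where Glul A_52_P101279 lies at 0.64 and S100b at -0.78.

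Genes that work with these were described through lists, with 1 probe per gene, the brightest. Over all genes 73.8% were called at 4 h (29.3% higher, 44.5% lower) and 46.1% at 24 h (23.3% higher, 22.8% lower), and the median gene differed by -0.15 and 0.003. These shares come from a fit of 18169 probes, 1 per gene, adjusted over those alone. The calls of list genes are adjusted over all 27670 probes.

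In glutamate uptake and the glutamate-glutamine cycle 8 of 16 measured genes rose and 8 fell at 4 h (median -0.06), and 4 rose and 5 fell at 24 h (median -0.03). At 4 h these counts were 9 and 4 with quantile normalization and 5 and 8 with median scaling, and at 24 h 2 and 9 with median scaling and 2 and 0 with normexp background correction. Slc7a11, the exchanger that releases glutamate for cystine, rose by 1.48 ± 0.05 at 4 h (adjusted p = 3.07e-09) and was at -0.05 ± 0.05 at 24 h (adjusted p = 0.449). The glutamine transporter gene Slc38a5 fell by 0.76 ± 0.04 at 4 h and rose by 0.77 ± 0.04 at 24 h (adjusted p = 8.64e-08 and 4.25e-07). Slc17a6 and Slc17a7, which load glutamate into vesicles of neurons, rose by 1.22 and 1.14 at 4 h, and Slc17a6 by 0.52 at 24 h. Slc17a8, another vesicular transporter, fell by 1.20 at 24 h. Slc1a6, a glutamate transporter of neurons, fell by 0.21 at that time. Over the 5 other scalings the value of Slc17a8 ranged from -1.37 to -0.46, with the call kept in 4.

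Among genes of potassium and ion clearance 9 of 16 rose and 4 fell at 4 h (median 0.22), and 5 rose and 1 fell at 24 h (median 0.05), where median scaling gave 2 and 4. Kcnk2, a background potassium channel, rose by 1.47 ± 0.10 at 4 h and fell by 0.53 ± 0.10 at 24 h, and its value at 4 h ranged from 0.35 to 1.58 over the 5 other scalings, with the call kept in 4. Slc12a2, the sodium, potassium and chloride cotransporter, and Lrrc8a, a subunit of the volume-regulated anion channel, rose by 1.31 and 1.23 at 4 h. Atp1b2, a sodium pump subunit of astrocytes, rose by 0.76 at 4 h (adjusted p = 7.57e-08) and by 0.56 at 24 h (adjusted p = 3.25e-06). Best1, an anion channel, rose by 0.19 at 24 h, a call kept in 2 of the 5 scalings.

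Among water channels and the dystrophin complex, which anchors aquaporin-4 at endfeet, 2 of 13 genes rose and 8 fell at 4 h (median -0.41), and 5 rose and 2 fell at 24 h (median 0.12). Aqp11, an intracellular aquaporin, fell at both times, by 1.07 ± 0.04 and 0.38 ± 0.04. Trpv4, a channel that opens on cell swelling, fell by 0.79 ± 0.04 at 4 h and rose by 0.68 ± 0.04 at 24 h. Mlc1, an astrocyte endfoot membrane protein, fell by 0.64 at 4 h (-0.80 to -0.12 over the 5 scalings), and Dmd, the dystrophin gene, rose by 0.88 at 4 h and fell by 0.27 at 24 h.

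Among gap junction and pannexin genes 3 of 10 rose and 6 fell at 4 h (median -0.33), and 3 rose and 4 fell at 24 h (median 0.002). Gjb2, another connexin gene of astrocytes, rose by 1.05 ± 0.06 at 4 h. Gjc3 and Gjc1, connexin genes of glia and of neurons and vessels, fell by 0.75 and 0.72 at 4 h, and Gjc1 rose by 0.49 at 24 h. Gjd2, the connexin of electrical synapses, rose by 0.78 at 4 h and fell by 0.25 at 24 h, each call being kept in 4 of the 5 scalings, with a lowest value of 0.06 at 4 h. Gja4, a vascular connexin, rose at both times, by 0.33 and 0.42.

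Among folate enzymes and S100 proteins 4 of 15 rose and 5 fell at 4 h (median -0.06), and 9 rose and 1 fell at 24 h (median 0.23). The counts at 4 h were 1 and 8 with median scaling and 7 and 5 with the percentile over probes above background. S100a4 and S100a6 fell by 0.71 and 0.54 at 4 h and rose by 0.69 and 0.44 at 24 h, the same turn as S100b. S100a13 and S100a16 fell by 0.97 and 0.65 at 4 h. S100a11 rose by 0.90 at 24 h, as did the mitochondrial enzyme gene Shmt2, by 0.27.

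**Figure D5:**
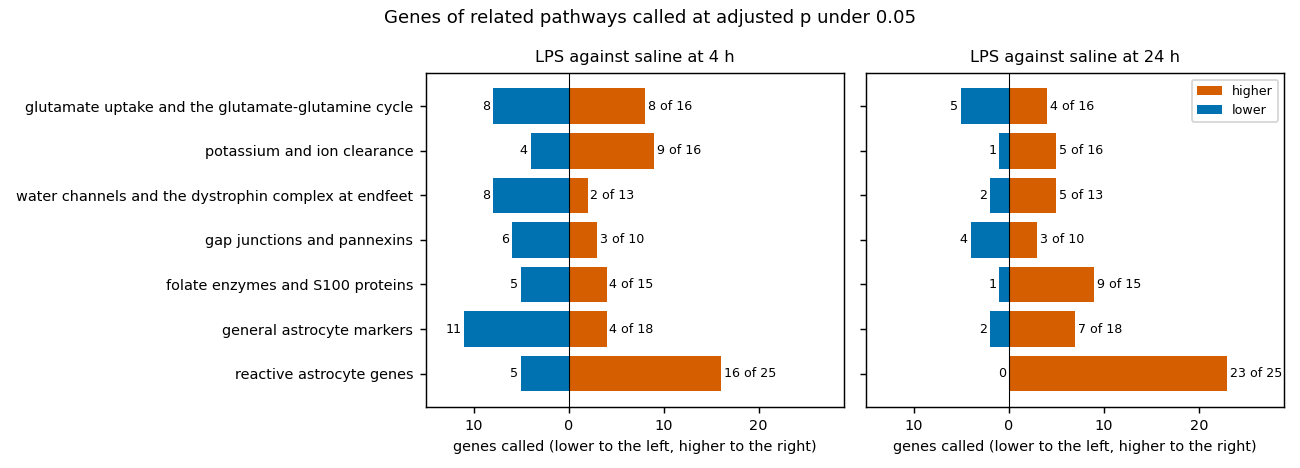
Number of genes called higher (orange, to the right of 0) and lower (blue, to the left of 0) at an adjusted p under 0.05 in 7 lists (rows), at 4 h (left panel) and 24 h (right panel), with the number measured after "of". Among reactive astrocyte genes 23 of 25 were higher at 24 h and 0 lower, while among water channel and dystrophin complex genes 8 of 13 were lower at 4 h.

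General astrocyte markers outside the 9 genes tell whether other astrocyte transcripts took the same course. Of 18 measured, 4 were higher and 11 lower at 4 h (median -0.18), and 7 higher and 2 lower at 24 h (median 0.04). The direction of this list at 4 h turned with the scaling: 9 were higher and 2 lower with quantile normalization and with the deposited matrix, and 3 and 13 with median scaling. At 24 h median scaling gave 3 and 4. The brightest probe of Gfap, the astrocyte filament gene, fell by 1.00 ± 0.05 at 4 h and rose by 0.43 ± 0.05 at 24 h, and another of its probes was called higher at 4 h. Gpr37l1, an astrocyte receptor gene, fell by 1.10 at 4 h, while Sox9, an astrocyte transcription factor gene, rose by 0.75 and Fgfr3 by 0.46. At 24 h Acsbg1 rose by 0.37 and Fgfr3 by 0.28, while Id4 fell by 0.24, a call kept in 3 of the 5 scalings. Probes of Id4 were called in opposite directions at 4 h.

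Of the reactive astrocyte genes 23 of 25 were higher at 24 h with 0 lower (median 1.02), against 16 higher and 5 lower at 4 h (median 0.59). Cxcl10, a chemokine gene, rose by 2.59 and 2.38 at 4 h and 24 h, Gbp2 and Iigp1, interferon-induced GTPase genes, by 2.40 and 2.03 and then by 1.53 and 1.66, and Cp, which encodes ceruloplasmin, by 1.83 at 4 h. Serpina3n, a protease inhibitor gene, rose by 1.15 at 24 h. Several of these genes are also expressed by other cells of inflamed tissue, so the list does not read astrocytes alone.

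With saline 24 h as controls for LPS 4 h, general astrocyte markers gave 13 higher and 2 lower, reactive astrocyte genes 24 and 0, and the water channel list 6 and 3. The potassium list gave 4 higher and 9 lower, the reverse of its main counts, and the glutamate list 7 and 7. Gap junction genes gave 4 and 4, and folate and S100 genes 9 and 2. With saline 4 h as controls for LPS 24 h, reactive astrocyte genes gave 8 higher and 14 lower (median -0.20). General astrocyte markers then gave 5 and 11, water channel genes 4 and 7, and folate and S100 genes 4 and 8. Glutamate genes gave 9 and 7, potassium genes 10 and 1, and gap junction genes 4 and 4.

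Markers of other cell types moved between the groups as well. The 9 astrocyte genes themselves, by their brightest probes, summed on the linear scale to 500 to 523 times the 75th percentile of the array in saline 4 h, 358 to 371 in LPS 4 h, 235 to 244 in saline 24 h and 263 to 266 in LPS 24 h. All 9 were above background in every group. In the same order of groups, 10 microglia markers summed to 426 to 448, 342 to 354, 127 to 133 and 187 to 191, so their sum took the same order as that of the astrocyte genes. S100b alone made up 53% to 54.7% of the astrocyte sum in saline 4 h and 34.8% to 37.7% in saline 24 h. Without it the sums of the other 8 genes were 235 to 241, 203 to 207, 147 to 159 and 159 to 166. By their brightest probes 4 of the 9 genes had this order of groups themselves, and 4 were higher in LPS 4 h than in saline 4 h. Sums over 10 oligodendrocyte markers were 312 to 318, 266 to 271, 194 to 195 and 181 to 188. Sums over 12 neuron markers were 163 to 165, 175 to 178, 210 to 213 and 177 to 183, and went the other way at both times.

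At 4 h microglia markers were higher in 2 and lower in 7 of 10, endothelium markers in 1 and 9 of 10, oligodendrocyte markers in 2 and 6 of 10, oligodendrocyte precursor markers in 1 and 4 of 6, and neuron markers in 6 and 2 of 12. At 24 h microglia markers were higher in 9 and lower in 1, endothelium markers in 9 and 0, oligodendrocyte markers in 0 and 4, precursor markers in 1 and 3, and neuron markers in 0 and 5. With quantile normalization the counts at 4 h were 10 and 1 for neurons and 6 and 3 for oligodendrocytes, and with median scaling 4 and 4 for neurons. Microglia markers at 4 h ranged from 1 to 4 higher and 4 to 7 lower over the 5 scalings, and endothelium markers stayed at 1 and 9. Cx3cr1, a microglial receptor gene, fell by 1.30 at 4 h, and Cldn5 and Sox17, endothelial genes, by 3.08 and 3.64. Camk2a, a gene of excitatory neurons, rose by 1.01 at 4 h and fell by 0.38 at 24 h.

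Neighbouring tissue was read through markers of thalamus, choroid plexus and blood. The 7 thalamus markers summed to 15.9 to 16.5 in saline 4 h, 11.8 to 11.9 in LPS 4 h, 6.19 to 6.22 in saline 24 h and 8.86 to 9.03 in LPS 24 h, which is again the order of the astrocyte sum. They were higher in 3 and lower in 3 at 4 h and higher in 7 at 24 h, and Tcf7l2 and Rora had probes called in opposite directions at 4 h. Of 8 choroid plexus and ependyma markers 2 were higher and 6 lower at 4 h, and 7 higher at 24 h, with sums of 51.8 to 53.6, 40.7 to 41.6, 36.8 to 38.8 and 53.2 to 54.5. Of 7 pericyte and smooth muscle markers 3 were higher and 3 lower at 4 h and 6 higher at 24 h. Their sums, 24.1 to 24.5, 20.2 to 20.6, 13.4 to 14.6 and 16.1 to 16.6, also had the order of the astrocyte sum. Red blood cell markers, 4 of them, were lower in 3 at each time, with Hba-a1 at -0.73 and -1.02. Of 5 neutrophil and blood monocyte markers 4 were higher and 1 lower at 4 h, S100a9 by 3.71, and 4 higher at 24 h.

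Ngp, a neutrophil granule gene, was below background on every saline array of both times, and Slc4a1, a red blood cell gene, on every saline 4 h array. The other markers measured were above background on at least 1 array of each group. Ly6g, Camp and Ccr2 among the neutrophil and monocyte markers and Hbb-b1 and Hbb-b2 among those of red blood cells were not analysed here. The part that shifts of these cell types or tissues, the dimmer saline 4 h arrays or the scan run had in the values of the 9 genes was not tested.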

How the data were processed

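Total RNA of 12 hippocampi was hybridised in Cy3 to one-colour Agilent arrays. The deposited array files hold processed intensity, which Agilent Feature Extraction 10.7.3.1 had background-subtracted, per the file headers (the submitters' processing notes name 9.1). The deposited matrix holds log2 values with column medians of 6.98 to 6.99, matched here by normexp (offset 50) and quantile normalization.

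Without control spots, each array had 43379 transcript spots out of 45018. Outlier readings on single arrays, 926 over the 12 arrays together, were dropped. Where a probe had several spots, the mean of their log2 values was used. Each array was centred on its 75th percentile. Of 41174 probes, 27670 were kept, those that some group had well above background on each of its 3 arrays. The deposited positions are on mm9. Probes were named by accession (27479), symbol (5478) or synonym (679) through the RefSeq table, or kept the name of the file (7538).

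The means of the 4 groups were fitted in limma 3.58.1 (R 4.3.3) over 12 arrays with empirical Bayes moderation. Calls are at a two-sided Benjamini-Hochberg adjusted p under 0.05 over all probes unless another set is stated. Errors are SEs of the fit unless called SD. Every kept probe of the 9 genes is named, and up to 4 genes per pathway list and up to 3 per marker list and comparison, by smallest adjusted p, with some genes that met this rule not reported here. The 9 genes, the lists and the naming rule were chosen with earlier results of these data known.

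On simulated data with 27666 probes, the fit recovered 76 of 100 probes changed 1.5-fold and 85 of 100 changed 2-fold at 4 h, with 11 calls among unchanged probes, and 68, 79 and 12 at 24 h. Only these probes were changed, a far smaller share than the 71% and 41.7% of probes called in the data at 4 h and 24 h. The recovery and the calls among unchanged probes therefore do not carry over to the data. Alternatives were other background corrections and scalings, the deposited matrix, filters, probe rules, blocks by slide and by replicate number, moderation, array weights, thresholds, the saline arrays of the other time and leaving out each array.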

Additional observations from a re-analysis of the deposited data

Results flagged for a closer look

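The response to LPS differed between 24 h and 4 h, by a test of the difference itself, for 16 of the 18 probes, beside 65.9% of all probes. As log2 values of 24 h minus 4 h, S100b gave 1.01, Aqp4 0.92 (A_52_P25710), 0.84 (A_52_P625527) and 0.55 (A_51_P419319), and Kcnj10 0.89. The Slc1a2 probes gave 0.75 (A_52_P168496), 0.71 (A_51_P477875), 0.57 (A_51_P179878) and 0.32 (A_52_P178651), and Gjb6 gave 0.41 on both A_51_P218937 and A_52_P482251. Negative were Gja1 at -0.66, Slc1a3 at -0.62 (A_52_P378975) and -0.26 (A_51_P268697), and Glul at -0.35 (A_52_P101279) and -0.24 (A_51_P441798). With the deposited matrix Slc1a2 A_51_P179878 (0.12) and A_52_P178651 (0.21), Gjb6 (0.24 and 0.11) and Glul A_51_P441798 (-0.12) lost this call. With quantile normalization Slc1a2 A_51_P179878 (0.11) and A_52_P178651 (0.26) and Gjb6 A_52_P482251 (0.13) lost it. The other called differences kept their call under these scalings. Time of dissection and scan run cannot be told apart in these differences.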

How the results depend on the processing

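Depth was limited by the 12 arrays and, for dim probes such as Slc1a3 A_52_P378975, by signal over background. The cause of each change below was not tested unless fewer genes or arrays made it. As reported, 19650 probes were called at 4 h, 11541 at 24 h, 18247 for the difference of the responses and 21995 between the saline groups. With normexp background correction these were 11983, 4103 and 10148 for the first 3, with 1 member probe lower at 24 h and 3 negative in the difference, and 78 in place of 130 list genes called at 24 h. Averaging the probes of a gene, which leaves 18169 features to test, gave 12795, 7680, 11927 and 14303, and the gene means of Slc1a2 and Slc1a3 at 24 h were 0.19 and 0.0575, above 0 where single probes were below. At 1.5-fold or more, 9119, 2142, 10112 and 14252 remained, with 3 of the 18 probes higher at 4 h and 4 lower, 0 and 0 at 24 h, 6 and 2 in the difference and 1 higher between the saline groups. Quantile normalization left 6 of the 18 lower at 4 h, with 9 higher in place of 6. It gave Gjb6 0.17 and 0.19 there, both called higher, and the deposited matrix gave 0.13 and 0.15, neither called. With the percentile over probes above background on all arrays Gjb6 A_51_P218937 was 0.0514, and with median scaling Gja1 was -0.0474. At 24 h median scaling gave Slc1a2 A_52_P178651 -0.00471. The deposited matrix gave 7 positive differences of response in place of 11. Lower at 24 h was 1 probe in place of 2 with quantile normalization, the deposited matrix, no filter on dim probes, only the groups compared, an adjusted p under 0.01, and the slide or the replicate number as a block.

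With the saline arrays of the other time as controls, 14 of the 18 probes stood higher at 4 h with 2 lower. Over all probes 9812 were higher and 9783 lower there. At 24 h 7 of the 18 stood higher with 10 lower, and 22115 probes in all were called, 11044 higher and 11071 lower. At 4 h Slc1a2 A_51_P179878 and A_52_P178651 were then 0.49 and 0.36, Glul A_51_P441798 -0.15, Kcnj10 0.49, Aqp4 0.38, 0.68 and 0.70, Gjb6 1.17 and 1.17, and S100b 0.89. At 24 h Slc1a2 A_52_P178651 was -0.48, Slc1a3 A_51_P268697 0.0385, Kcnj10 -1.03, Aqp4 -0.37, -1.20 and -0.78, Gjb6 -0.87 and -1.03, and S100b -1.43.

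The difference of responses of Aldh1l1, 0.01 as reported, was -0.00131 with normexp, -0.13 with quantile normalization, -0.0887 with the percentile over probes above background, -0.11 with the deposited matrix, and -0.0139 to 0.0323 with arrays left out. Between the saline groups, Slc1a3 A_52_P378975, 0.01 as reported, was -0.53 with normexp, -0.18 with quantile normalization, -0.18 with median scaling, -0.0581 with the deposited matrix, -0.00493 with array weights and -0.0474 to 0.0614 with arrays left out. There Slc1a2 A_52_P168496 was 0.18 with quantile normalization and 0.19 with the deposited matrix, and Slc1a2 A_51_P477875 0.0399 with the percentile over probes above background. Median scaling gave Slc1a3 A_51_P268697 -0.0617, Glul A_52_P143866 -0.0250 and Aldh1l1 -0.0425, and left 1 probe higher in place of 4.

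Leaving out 1 array at a time gave at 4 h 6 probes higher with 8 to 10 lower and at 24 h 11 to 13 higher with 1 to 3 lower. With the replicate number as a block 19373 probes were called at 4 h and 10857 at 24 h, among the 18 with 6 higher at 4 h against 10 lower and 13 higher at 24 h against 1 lower. The numbers gave no clear pairing at 4 h, where arrays with the same number had deviations correlated at 0.08, 0.17 and -0.15. Arrays that shared a slide had 0.25, -0.05 and 0.17 there. At 24 h, where the number is also the slide, the correlations were 0.03, 0.08 and 0.07. Each 24 h array correlated best with its own number. The reported fit has no block. With the slide as a block 6 of the 18 were higher at 4 h against 9 lower, and 13 at 24 h against 1. The slide block left no estimate between the saline groups.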
